A study of Homo sapiens with 12 samples.

Results

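PHLDA1, PHLDA2 and PHLDA3 encode a small family of pleckstrin homology-like domain proteins, and their mRNA levels were compared in cisplatin-resistant lung cancer cells grown in normal or time-restricted medium, with or without cisplatin (DDP). The 3 genes were taken by symbol from a table of 60902 genes and loci, and all 3 passed the filter on low levels, which kept genes averaging 1 TPM or more over the libraries. PHLDA2 was chosen by its TPM in these same libraries, because that level was high with the combined treatment, so its values are given as a description with no test. PHLDA1 and PHLDA3 entered as its paralogs and were tested. TPM expresses each gene as its part of the whole transcript pool, corrected for transcript length, so levels can be set side by side between genes.

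Messenger RNA was sequenced from A549/DDP, a DDP-resistant line of the human lung adenocarcinoma line A549, in 4 groups of 3 libraries each. The study's results name A549/DDP for the sequencing, while its sequencing methods say A549 tumor cells. The control group (CON) stayed in RPMI-1640 medium with 2 g/L glucose and 10% serum through each 24 h cycle. The group mimicking time-restricted feeding (TRF) had that medium for 6 h of each cycle and medium without serum or glucose for the other 18 h. The DDP group received DDP in normal medium and the TRF+DDP group received both. The resistant line was kept in 1 µg/mL DDP during routine culture, and whether the groups without added DDP carried any from that culture is not stated in what was read here. The dose and time of DDP for the sequenced cells are likewise not stated. For the same comparison by RT-qPCR, the study names 2 µg/mL and 48 h. All groups come from 1 resistant line, and the study describes its 3 replicates per group as biological. Neither it nor the labels say that they came from separate cultures, so p-values measure the spread between these libraries.

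The PH-like domain of these proteins resembles the domain by which AKT and other kinases bind phosphoinositides at the inner face of the plasma membrane. PHLDA3 is a direct target of p53 and restrains AKT by competing for those lipids. PHLDA2 is an imprinted gene expressed from the maternal copy and is best known for limiting growth of the placenta. PHLDA1, also called TDAG51, is induced by growth factor signals through ERK and by heat shock, and has been tied to both cell death and cell survival.

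In GENCODE v29 (GRCh38), PHLDA1 (ENSG00000139289) lies on the minus strand of chromosome 12 at chr12:76025447-76033932. PHLDA2 (ENSG00000181649) lies on the minus strand at chr11:2928273-2929455, inside the imprinted region of 11p15.5. PHLDA3 (ENSG00000174307) lies on the minus strand at chr1:201464383-201469237. The longest protein-coding transcripts span 8069, 955 and 2640 bases, and their open reading frames hold 401, 152 and 127 codons. In each gene the coding bases of that transcript lie within 1 exon.

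A coding stretch that 2 of the paralogs share is shown as an example of their likeness. It is not the longest in the family, and whether reads were assigned to the wrong member was not tested. PHLDA2 and PHLDA3 share a run of 18 bases, in capitals below, within windows of 78 bases read 5′ to 3′ on the minus strand of GRCh38, at chr11:2929083-2929160 and chr1:201468496-201468573.

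PHLDA2: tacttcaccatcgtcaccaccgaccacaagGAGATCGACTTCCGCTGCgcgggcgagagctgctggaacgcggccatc
PHLDA3: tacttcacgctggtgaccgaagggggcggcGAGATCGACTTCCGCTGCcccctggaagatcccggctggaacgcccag

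The longest run shared by any 2 transcripts of the family was 28 bases, between PHLDA1 and PHLDA3. It was 17 bases between PHLDA1 and PHLDA2, and 18 bases between PHLDA2 and PHLDA3. Over the best local alignment of the coding sequences, 114 of 153 bases (74.5%) were identical between PHLDA1 and PHLDA2. For PHLDA1 and PHLDA3 the count was 143 of 193 (74.1%), and for PHLDA2 and PHLDA3 it was 225 of 326 (69.0%). The family is thus related in sequence without long identical stretches. Genes that overlap the members were close to silent: PHLDA1-AS1 and PHLDA1-DT, both antisense to PHLDA1, reached at most 0.88 TPM in any library, and ENSG00000224818, which overlaps PHLDA3, was listed at 0 in all 12.

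The genes reaching 1 TPM numbered 13726 to 13854 for CON and 13866 to 14028 for DDP, against 13029 to 13307 for TRF and 13384 to 13500 for TRF+DDP. Mitochondrial transcripts took 10.3% to 10.8% of TPM for CON, 9.88% to 9.99% for DDP, 6.37% to 8.84% for TRF, where replicate 3 was lowest, and 8.28% to 8.55% for TRF+DDP. The part of either measure in the results was not tested. The read counts behind the TPM were not analysed here, so depth is unknown. Of 6 epithelial markers, KRT7, KRT8 and KRT18 were abundant, with means of 1137, 725 and 614 TPM, while EPCAM, CDH1 and KRT19 stayed at or below 0.48 TPM. Of 8 alveolar type 2 markers only ABCA3 averaged above 1 TPM over all libraries. The endothelial list of 5 markers summed to at most 0.28 TPM in any library and the trophoblast list of 6 to at most 0.92. Of 6 leukocyte markers CD3E and MS4A1 were at 0 and PTPRC at or below 0.01 TPM, but ITGAM ran from 1.34 to 4.84. Of 6 fibroblast markers only COL1A1 averaged above 1 TPM (5.35 to 20.3), and the summed list ran from 14.1 to 16.6 TPM for CON, 16.5 to 21.0 for DDP, 10.5 to 11.9 for TRF and 5.92 to 6.99 for TRF+DDP. The summed epithelial list ran from 1850 to 1925 TPM for CON and from 2296 to 2586 for DDP, against 2715 to 2881 for TRF and 2687 to 2876 for TRF+DDP, and the part of any of these lists in the results was not tested. Rescaling the libraries moved the median of all tested genes from -0.11 to -0.01 (log2) in TRF against CON and from -0.10 to 0.00 in TRF+DDP against DDP, with trimmed means of M-values (TMM). The split of higher to lower calls moved with it: 257 to 22 against 169 to 37 for DDP over CON, 1165 to 2375 against 1621 to 1858 for TRF over CON, and 1631 to 2968 against 2122 to 2390 for TRF+DDP over DDP. For TRF+DDP over TRF it was 1413 to 845 against 1169 to 1061, and it turned round with quantile normalization (1049 to 1066).

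PHLDA2 was the member with the widest range. Its TPM was 20.06, 19.71 and 18.54 in the CON libraries and 39.45, 38.56 and 42.66 in the DDP libraries. In TRF medium it was 143.88, 180.51 and 179.18 without DDP and 513.0, 550.24 and 540.57 with it. No 2 groups overlapped, and they stood in the order CON, DDP, TRF, TRF+DDP. Of the 13854 tested genes, 10.3% had 4 groups with no overlap and 2.36% had them in this order. The means were 19.4 ± 0.796, 40.2 ± 2.16, 168 ± 20.8 and 535 ± 19.3 TPM (SD, n = 3 each). Within a library, PHLDA2 ranked between 5282 and 5595 among all genes by TPM in CON and between 245 and 259 in TRF+DDP. In bulk RNA, fewer cells of a type and less RNA per cell cannot be told apart, so these levels are averages over the culture.

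PHLDA3 was the most abundant member in normal medium. Its TPM was 92.5, 86.71 and 93.6 in CON, 145.47, 141.9 and 141.5 in DDP, 110.54, 104.66 and 117.57 in TRF, and 256.11, 244.37 and 242.52 in TRF+DDP. The groups stood in the order CON, TRF, DDP, TRF+DDP and did not overlap, so PHLDA3 and PHLDA2 had TRF and DDP in opposite places. Means were 90.9 ± 3.70, 143 ± 2.19, 111 ± 6.46 and 248 ± 7.37 TPM (SD, n = 3 each, in the order CON, DDP, TRF, TRF+DDP).

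PHLDA1 was the lowest member in every group and moved least. Its TPM was 16.56, 16.85 and 16.55 in CON, 23.6, 22.96 and 23.23 in DDP, 13.59, 16.44 and 14.81 in TRF, and 19.12, 19.36 and 19.16 in TRF+DDP. The lowest group was TRF and the highest DDP, and the highest TRF library lay only just under the lowest CON library. Means were 16.7 ± 0.170, 23.3 ± 0.321, 14.9 ± 1.43 and 19.2 ± 0.129 TPM (SD, n = 3 each, in the same order). PHLDA1 was therefore the only member with a lower level in TRF+DDP than in DDP.

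**Figure D1:**
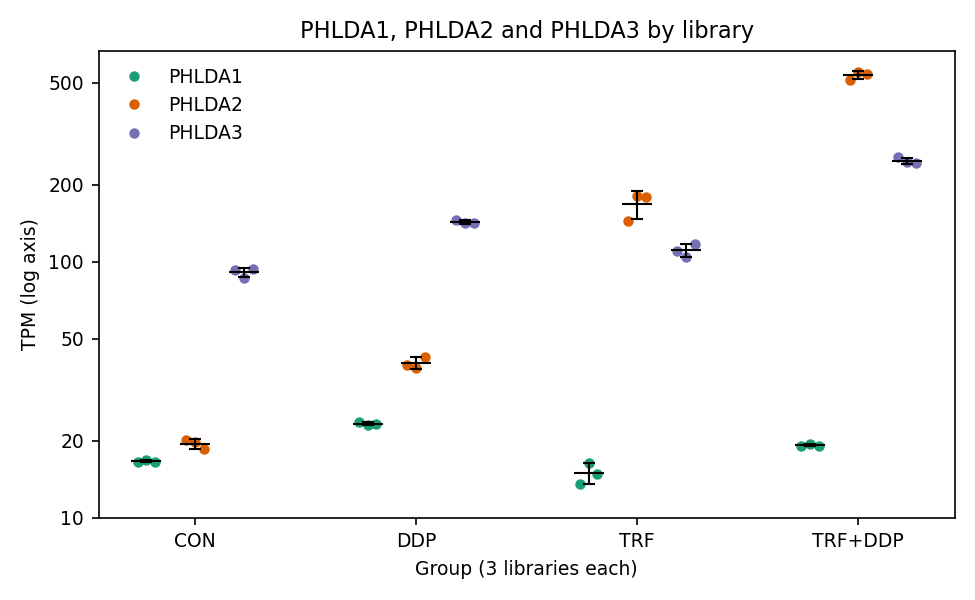
TPM of PHLDA1, PHLDA2 and PHLDA3 on a log axis, by group. Each point is 1 library, and the black bar and whiskers are the mean and SD of 3 libraries. PHLDA2 starts at 19.4 TPM in CON, close to PHLDA1 at 16.7, and ends at 535 TPM in TRF+DDP, above PHLDA3 at 248.

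The make-up of the family changed over with these levels. The summed TPM of the 3 genes was 127 ± 3.26 for CON and 206 ± 2.68 for DDP, against 294 ± 22.8 for TRF and 801 ± 12.9 for TRF+DDP (SD, n = 3 each). PHLDA3 held a mean of 71.6% of that sum in CON and 69.2% in DDP, then 37.9% in TRF and 30.9% in TRF+DDP. PHLDA2 held 15.3%, 19.5%, 57.0% and 66.7% in the same order. The switch of the leading member thus followed the medium: PHLDA3 led in all 6 libraries of normal medium and PHLDA2 in all 6 libraries of TRF medium. PHLDA1 held 13.1%, 11.3%, 5.09% and 2.40%. These shares are a description, since PHLDA2 enters every one of them.

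**Figure D2:**
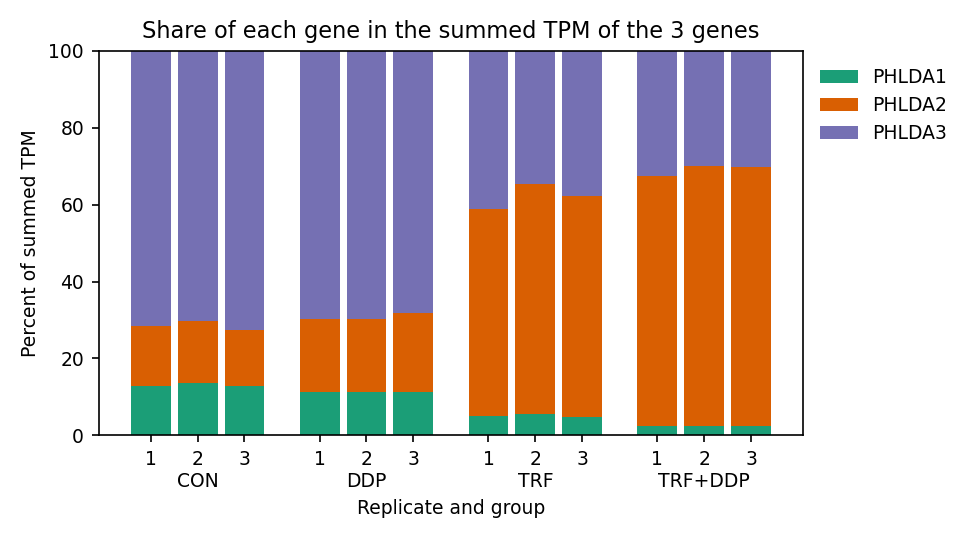
Share of PHLDA1, PHLDA2 and PHLDA3 in their summed TPM, in percent, with 1 stacked bar for each of the 12 libraries. PHLDA3 takes the largest share in the CON and DDP bars (means of 71.6% and 69.2%) and PHLDA2 in the TRF and TRF+DDP bars (57.0% and 66.7%).

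DDP against CON asks what the drug did to the resistant cells in normal medium. PHLDA3 rose 1.57-fold in TPM, by 0.65 on the log2(TPM + 1) scale (SE 0.048, adjusted p = 9.37e-06, limma with Benjamini-Hochberg adjustment over all genes), and was called, which took both a fold above 1.5 and an adjusted p below 0.05. Only 2.01% of the tested genes were called here (1.86% higher, 0.159% lower), and 34.6% had groups that did not overlap, as PHLDA1 and PHLDA3 both did. PHLDA3 lay close to the fold threshold, and with TMM scaling (0.57) or quantile normalization (0.58) it fell short of it while the adjusted p stayed at 1.59e-04 and 1.47e-05. PHLDA1 was 1.40-fold higher, a log2 difference of 0.46 (SE 0.064, adjusted p = 7.13e-04, limma), which was under the fold threshold. PHLDA2 was 2.07-fold higher in TPM, a log2 difference of 1.01 (SE 0.078), and 113 genes had a larger one.

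TRF against CON asks what the medium did without the drug, and it shares the CON libraries with the comparison above. Here the family members parted. PHLDA2 was 8.64-fold higher in TPM, with a log2 difference of 3.04 (SE 0.078) that 12 genes exceeded. PHLDA3 was 1.22-fold higher, with a log2 difference of 0.28 (SE 0.048, adjusted p = 2.55e-04, limma), and was not called because the fold fell short. PHLDA1 was at 0.898 of its CON level, with a log2 difference of -0.15 (SE 0.064, adjusted p = 0.0600, limma). That p misses the threshold, which does not show that the levels were alike. The difference was -0.09 without TRF replicate 1, -0.22 without TRF replicate 2 (adjusted p = 0.00572, limma) and -0.04 with TMM scaling, and it stayed under the fold threshold in each. In this comparison 25.6% of genes were called (8.41% higher, 17.1% lower), 60.7% passed the adjusted p alone and 64.4% had groups that did not overlap, so the lack of overlap of PHLDA1 and PHLDA3 was common.

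TRF+DDP against DDP asks what the medium added to the drug. PHLDA2 was chosen for its high level with the combination, and every group enters that choice, so no comparison of PHLDA2 is free of it. PHLDA2 was 13.3-fold higher in TPM, with a log2 difference of 3.70 (SE 0.078) that 3 genes exceeded. It was 3.82 with TMM scaling. PHLDA3 rose 1.73-fold, a log2 difference of 0.79 (SE 0.048, adjusted p = 2.41e-08, limma), and was called. PHLDA1 was at 0.826 of its DDP level, a log2 difference of -0.26 (SE 0.064, adjusted p = 0.00309, limma), which stayed under the fold threshold and was -0.15 with TMM scaling. Calls were made for 33.2% of genes (11.8% higher, 21.4% lower), 65.4% passed the adjusted p alone and 70.2% had groups that did not overlap.

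TRF+DDP against TRF asks what the drug did in TRF medium. PHLDA3 rose 2.23-fold, a log2 difference of 1.15 (SE 0.048, adjusted p = 6.06e-09, limma), and was called, as were 16.3% of genes (10.2% higher, 6.1% lower). PHLDA1 was 1.29-fold higher, a log2 difference of 0.35 (SE 0.064, adjusted p = 8.34e-04, limma), and was not called. PHLDA2 was 3.18-fold higher, with a log2 difference of 1.67 (SE 0.078) that 108 genes exceeded. The adjusted p alone passed for 47.9% of genes, and groups did not overlap for 54.5%, PHLDA1 and PHLDA3 among them. In this comparison and in DDP against CON, the differences of all 3 members were positive.

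TRF+DDP against CON covers both treatments at once and shares libraries with each comparison above. PHLDA2 was 27.5-fold higher in TPM, with a log2 difference of 4.71 (SE 0.078), and 1 of 13854 genes exceeded it. PHLDA3 rose 2.72-fold, a log2 difference of 1.44 (SE 0.048, adjusted p = 1.32e-10, limma), with 388 genes above it. PHLDA1 was 1.15-fold higher, a log2 difference of 0.20 (SE 0.064, adjusted p = 0.0171, limma), and was not called. Here 35.1% of genes were called (15.6% higher, 19.5% lower), 67.2% passed the adjusted p alone and 72.6% had groups that did not overlap. Over the 5 comparisons PHLDA3 was called in 4 and PHLDA1 in 0, although the adjusted p of PHLDA1 passed 0.05 in 4 of them.

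**Figure D3:**
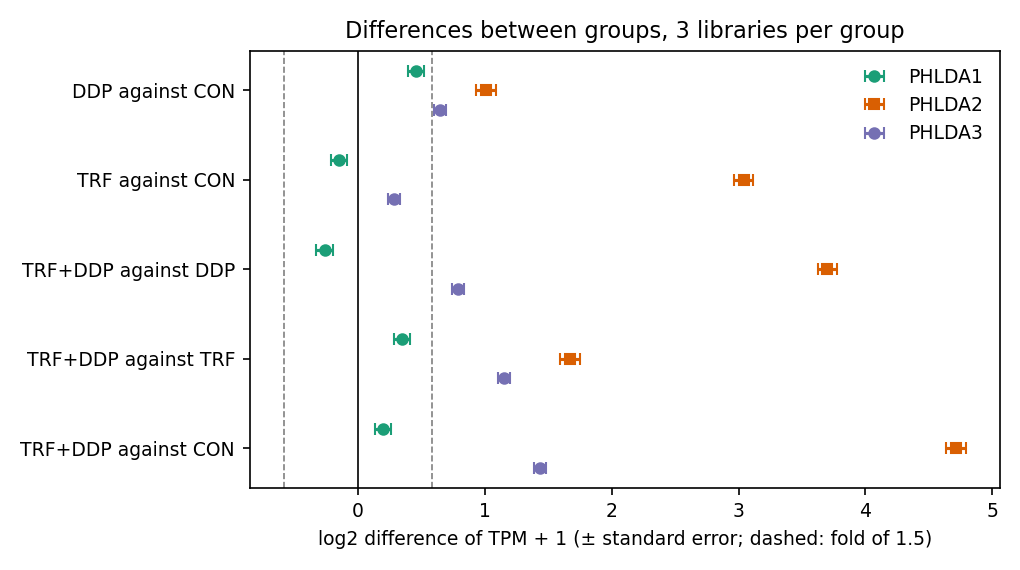
Difference of log2(TPM + 1) between groups for each family member, with whiskers of 1 standard error from the fit of all 12 libraries. Dashed lines mark a fold of 1.5 in either direction. PHLDA1 stays between them in all 5 comparisons, PHLDA3 passes the upper line in 4, and PHLDA2 lies from 1.01 to 4.71.

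The interaction of TRF and DDP asks whether the drug moved a gene by a different amount in the 2 media. For PHLDA3 the log2 difference made by DDP was larger in TRF medium by 0.51 (SE 0.068, adjusted p = 1.79e-04, limma), and 29.8% of genes passed the same test. For PHLDA1 the interaction was -0.11 (SE 0.091, adjusted p = 0.390, limma), with values from -0.18 to -0.05 when single libraries were left out. For PHLDA2 it was 0.66 (SE 0.11), given without a test. On the TPM scale, PHLDA3 in TRF+DDP averaged 248 against 163 if the 2 single-treatment increments were summed and 174 if the 2 folds were multiplied. PHLDA2 averaged 535 against 189 and 347, and PHLDA1 19.2 against 21.6 and 20.9. The observed mean was thus above both reference values for PHLDA3. For PHLDA1 it was slightly below both, and the interaction of that gene did not pass the threshold. No spread was worked out for the reference values. PHLDA2 was chosen for its high level with the combination, so its place above both is a description only.

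The tested paralogs can also be compared within each library, where scaling between libraries cancels out. The ratio of PHLDA3 to PHLDA1 in TPM was 5.46 ± 0.276 for CON and 6.15 ± 0.0474 for DDP, against 7.48 ± 0.969 for TRF and 12.9 ± 0.436 for TRF+DDP (SD, n = 3 each). The exact permutation test (2-sided, n = 3 per group) gave p = 0.1 for DDP against CON, TRF against CON, TRF+DDP against DDP and TRF+DDP against TRF. This is the smallest p that 3 against 3 libraries allow, so this ratio cannot pass 0.05. The ratio of PHLDA2 to PHLDA3 was 0.214, 0.281, 1.52 and 2.16 in the order CON, DDP, TRF, TRF+DDP, and that of PHLDA2 to PHLDA1 was 1.17, 1.73, 11.2 and 27.8.

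Direct targets of p53 are the group to which PHLDA3 belongs by function, and the 29 others listed were all tested. In DDP against CON, 19 of them were called higher and 0 lower, where 1.86% and 0.159% of all genes were, with a median log2 difference of 0.67 (median of all genes 0.06). Tested against a fold of 1.5, the count was 3 in place of 19. In TRF against CON, 4 were called higher and 9 lower (all genes 8.41% and 17.1%, median -0.42), whereas PHLDA3 had a positive difference there. Between TRF+DDP and DDP, 18 were called higher and 1 lower (all genes 11.8% and 21.4%, median 0.71). Between TRF+DDP and TRF, 27 were called higher and 0 lower (all genes 10.2% and 6.1%, median 1.53). Placed among the 29, PHLDA3 had 17, 6, 13 and 20 targets with a larger difference in these 4 comparisons. Its place in the list was thus highest in TRF against CON, the comparison in which most called targets were lower.

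The p53 targets with the largest called differences between TRF+DDP and DDP were PMAIP1, GADD45A, CDKN1A and SFN. PMAIP1, a BH3-only promoter of apoptosis, rose by a log2 difference of 2.33 to 54.2 ± 3.73 TPM. CDKN1A, the p21 inhibitor of cyclin-dependent kinases, rose by 1.78 to 946 ± 16.0 TPM, and GADD45A, a growth arrest gene, by 1.85 to 219 ± 7.94 TPM (SD, n = 3 each). SFN, the 14-3-3 sigma protein that holds cells at the G2 checkpoint, rose by 1.47. BAX, which permeabilizes the mitochondrial outer membrane, was the 1 target called lower, by a log2 difference of -0.84. XPC (-0.56), DDB2 (-0.53) and CCNG1 (-0.40), the first pair being sensors of DNA damage and the last a cyclin, were also lower (adjusted p = 7.04e-07, 2.60e-06 and 8.89e-05, limma) but under the fold threshold. PHLDA3 with its 0.79 thus lay below these 4 risers.

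**Figure D4:**
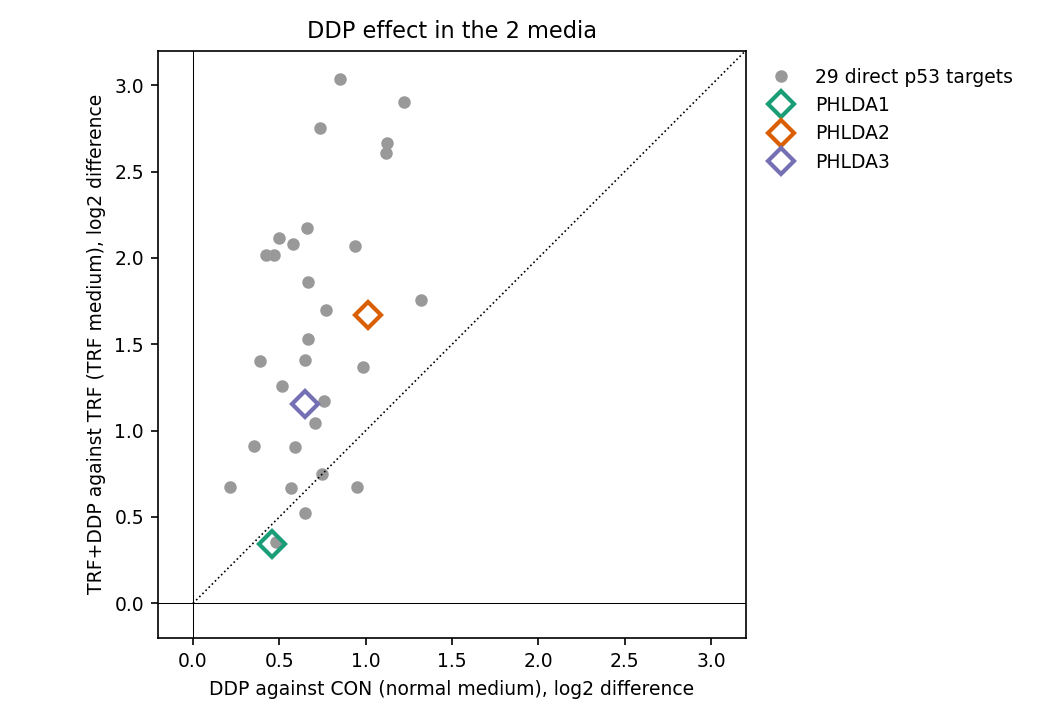
Log2 difference made by DDP in normal medium (x axis, DDP against CON) and in TRF medium (y axis, TRF+DDP against TRF). Grey points are the 29 direct p53 targets, open diamonds are the family members, and the dotted line marks equal differences. PHLDA2 (1.01 and 1.67) and PHLDA3 (0.65 and 1.15) lie above the line and PHLDA1 (0.46 and 0.35) just below it.

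PHLDA1 has been linked to heat shock and to ERK, so the genes of both responses were read beside it. Of 17 targets of heat shock factor 1, 13 were called higher and 0 lower in TRF against CON (all genes 8.41% and 17.1%, median log2 difference 0.99), and the same counts held in TRF+DDP against DDP (all genes 11.8% and 21.4%, median 0.99). HSPA6, an HSP70 gene that is nearly silent without stress, rose by 7.18 on the log2(TPM + 1) scale between TRF+DDP and DDP, from 0.650 ± 0.612 to 228 ± 33.5 TPM (SD, n = 3). The stress-inducible HSP70 genes HSPA1A and HSPA1B rose by 2.42 and 2.04, but they are near-identical copies whose reads cannot be parted with certainty. HSP90AA1, the inducible HSP90, rose by 1.43. PHLDA1 had negative differences in both comparisons, -0.15 (adjusted p = 0.0600, limma) and -0.26 (adjusted p = 0.00309, limma), both under the fold threshold. The medians of all genes there were -0.11 and -0.10. With TMM scaling the PHLDA1 differences were -0.04 and -0.15.

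Of 8 tested ERK output genes, TRF+DDP had 3 higher and 1 lower than DDP (all genes 11.8% and 21.4%, median log2 difference 0.27). ETV4, an ETS transcription factor, rose by 0.85, DUSP6, the phosphatase that turns ERK off, by 0.84, and the receptor EPHA2 by 0.84. SPRY2, a Sprouty inhibitor of receptor signalling, fell by 1.31. With DDP alone, 0 of the 8 were called, where 2.01% of all genes were. The adjusted p alone passed for 3 of them (limma), against 12.2% of all genes. In DDP against CON, PHLDA1 and CCND1, the cyclin D1 gene of this list, both had a log2 difference of 0.46 (SE 0.064 and 0.062), and the other ERK genes and the 17 heat shock genes had smaller ones. In TRF against CON, CCND1 had 1.26 and PHLDA1 -0.15, and in TRF+DDP against DDP 0.38 and -0.26. In TRF+DDP against TRF they had -0.43 and 0.35, so their signs differed in these comparisons. In TRF+DDP against CON both were positive (0.84 and 0.20).

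PHLDA3 acts on the lipid step of AKT signalling, and 30 of 31 genes of that pathway were tested. TRF+DDP had 0 higher and 6 of 30 lower than DDP (median log2 difference -0.24, median of all genes -0.10), beside 11.8% and 21.4% of all genes, so the share that was lower was near the background. INPP4B, a phosphatase that removes a phosphate from phosphoinositides, fell by 1.48, and IRS1, the adaptor of the insulin receptor, by 1.45. INPP4A, a relative of INPP4B, fell by 0.80 to 7.44 ± 1.47 TPM (SD, n = 3). AKT1, at 155 TPM in DDP and 144 in TRF+DDP, differed by -0.10 (adjusted p = 0.0804, limma) and was not called.

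PHLDA2 sits in a cluster of imprinted genes, and 9 of the 17 listed genes of that cluster were tested. TRF+DDP had 1 higher and 2 lower than DDP (all genes 11.8% and 21.4%). KCNQ1, a potassium channel gene, fell by 1.80 on the log2(TPM + 1) scale, from 1.63, 3.27 and 3.12 TPM to 0.03, 0 and 0.06. OSBPL5, an oxysterol-binding protein gene, fell by 1.66 to 7.22 ± 0.690 TPM, and TSSC4 rose by 0.81 to 75.3 ± 3.05 TPM (SD, n = 3 each). In TRF against CON, 1 was called higher and 4 lower (all genes 8.41% and 17.1%), 5 in all, and 3 with quantile normalization, TMM scaling or a minimum of 1 TPM in every library. None of the 9 had a difference as large as that of PHLDA2 in either comparison. PHLDA2 was chosen for its high level, so this says nothing about the cluster.

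Of 14 tested imprinted genes from elsewhere in the genome, TRF+DDP had 2 higher and 3 lower than DDP (median log2 difference -0.20). BLCAP rose by 1.09 and the long noncoding RNA MEG3 by 0.83, while SGCE, a sarcoglycan gene, fell by 1.01 and GRB10, an adaptor that restrains insulin receptor signalling, by 0.93. The shares of all genes there were 11.8% and 21.4%. In DDP against CON, where 2.01% of all genes were called, neither imprinted list had a called member (0 of 9 and 0 of 14, limma). When no fold was required, 2 genes of each list passed, and 12.2% of all genes did.

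The direct neighbours of PHLDA2 were read separately. Within 100 kb of PHLDA2 lie 12 annotated genes, of which 6 were tested. SLC22A18, a transporter gene 3.0 kb away, was at 28.6 ± 1.89 TPM in DDP and 30.4 ± 0.907 in TRF+DDP (log2 difference 0.08, adjusted p = 0.298, limma). NAP1L4, a histone chaperone gene 15.0 kb away, differed by -0.10 (adjusted p = 0.205, limma), and CARS1, the cysteinyl-tRNA synthetase gene 71.5 kb away, by 0.05 (adjusted p = 0.298, limma). CDKN1C, the p57 inhibitor of cyclin-dependent kinases 42.5 kb away, was at 4.93 to 5.32 TPM in DDP and 7.22 to 7.68 in TRF+DDP, a log2 difference of 0.46 (adjusted p = 0.00438, limma) that was under the fold threshold. KCNQ1, 79.2 kb away, was the 1 of the 6 tested neighbours called in TRF+DDP against DDP, and it fell. Of all genes, 11.8% were called higher and 21.4% lower there. SNORA54 was listed at 0 in 11 libraries and at 22.89 TPM in replicate 2 of TRF.

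CDKN1C, maternally expressed like PHLDA2, went the other way from it in TRF against CON. It fell by 0.65 (adjusted p = 4.51e-04, limma), close to the fold threshold, from 5.75, 5.27 and 4.43 TPM to 2.47, 3.67 and 2.68. The 11p15.5 list that holds CDKN1C had 5 calls in this comparison and 3 with TMM scaling or quantile normalization. Which genes lost their call is not given here. Of the 6 tested neighbours, 0 were called higher and 2 lower there (all genes 8.41% and 17.1%), the other being KCNQ1 (-1.11). SLC22A18 (0.22) and CARS1 (0.18) had positive differences under the fold threshold (adjusted p = 0.0145 and 0.00217, limma). Between TRF+DDP and TRF, CDKN1C rose by 1.10 (adjusted p = 1.11e-05, limma), a comparison in which PHLDA2 also had a positive difference.

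PHLDA1 had 10 annotated genes within 100 kb, of which only NAP1L1, a histone chaperone gene 2.7 kb away, was tested. NAP1L1 differed by -0.46 in TRF+DDP against DDP (adjusted p = 5.55e-06, limma) and was not called. PHLDA3 had 9, of which 3 were tested. CSRP1, a LIM domain gene 14.3 kb away, rose by 0.85 in TRF against CON (adjusted p = 1.61e-07, limma), where PHLDA3 stayed under the fold threshold. In TRF+DDP against DDP, where PHLDA3 was called, CSRP1 differed by 0.40 and was not.

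**Figure D5:**
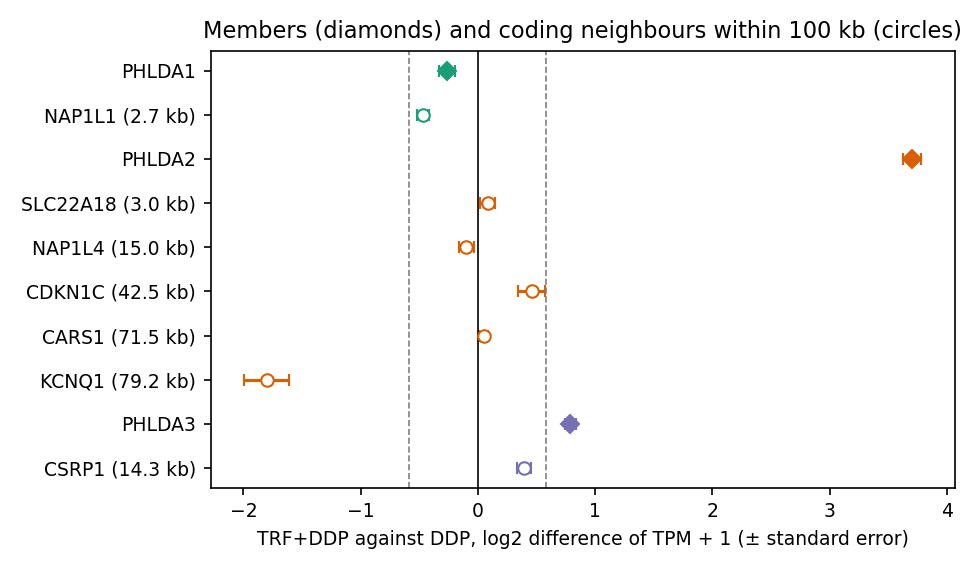
Log2 difference of TPM + 1 between TRF+DDP and DDP for the 3 family members (diamonds) and for the tested protein-coding genes within 100 kb of each (circles), with distance in kb and whiskers of 1 standard error. Dashed lines mark a fold of 1.5. PHLDA2 lies at 3.70, and its neighbours from -1.80 for KCNQ1 to 0.46 for CDKN1C.

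Genes whose pattern over the 12 libraries was most like each member were ranked by Pearson's r of log2(TPM + 1) among 7728 genes averaging 10 TPM or more. The points share 4 group means and the library scaling, so these values describe the pattern only. For PHLDA2 they included PLEKHB2 (0.996), CDR2L (0.995), ZNF622 (0.995) and PFDN2 (0.995). PFDN2, a prefoldin subunit, went from 166 TPM in CON to 389 in TRF+DDP, a far smaller fold than that of PHLDA2 with the same order of groups.

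For PHLDA3 the nearest were TAP1 (0.993), AK1 (0.992), AEN (0.991), ADAMTS7 (0.991) and AJUBA (0.989). AEN, a nuclease induced by p53, averaged 47.2, 77.8, 60.2 and 125 TPM in CON, DDP, TRF and TRF+DDP. TAP1, a subunit of the peptide transporter for antigen presentation, averaged 39.3, 60.4, 49.9 and 110 TPM. Both had the group order of PHLDA3.

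For PHLDA1 they were RB1 (0.966), GFPT1 (0.964), PARP14 (0.954), XPC (0.953) and HIF1A (0.951). XPC, a DNA damage sensor of nucleotide excision repair, averaged 60.0, 94.5, 44.2 and 64.0 TPM in the same group order, highest in DDP and lowest in TRF as PHLDA1 was. The 3 sets of 5 genes held no gene in common. Between the members themselves, r over the 12 libraries was 0.78 for PHLDA2 and PHLDA3, 0.46 for PHLDA1 and PHLDA3, and -0.09 for PHLDA1 and PHLDA2.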

How the data were processed

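Messenger RNA of A549/DDP cells was sequenced in 12 libraries. The authors used SeqPrep and sickle for trimming, HISAT2 for alignment and StringTie for assembly, and deposited TPM per library. The submitters' processing notes name edgeR without a role. For versions, genome build, strand use and quantifier the entry is "not given in the sources used here". Deposited group mean TPM columns were not used.

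Each column was matched to a group by its label. TPM was analysed as log2(TPM + 1) for the 13854 genes averaging 1 TPM or more, in 1 limma 3.58.1 fit of 4 groups (R 4.3.3, trend and robust empirical Bayes), with Benjamini-Hochberg adjustment. Calls needed a fold above 1.5 and an adjusted p below 0.05, the interaction the p alone. A fold on this scale understates the change of low genes. The depth of the libraries is unknown, so counting errors are not given and the spread of 3 replicates sets the precision. The fit was tested on simulated data. Positions and sequences come from GENCODE v29 (GRCh38), symbols from a gene name table.

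The members, the 6 gene lists and the marker lists were chosen with earlier results of these data known. Named genes are the members, the 5 genes most like each by r, genes within 100 kb, and up to 4 called list members with the largest difference in TRF+DDP against DDP. Some items that this rule names are not reported here. BAX, XPC, DDB2, CCNG1, CCND1, AKT1 and single neighbours with other values were named after their values were seen, and the PHLDA3 to PHLDA1 ratio was added after seeing the data. Alternatives covered scaling, filter, pseudocount, trend, fold threshold, samples in the fit, a replicate block and leaving out each library.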

Additional observations from a re-analysis of the deposited data

Results flagged for a closer look

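The DDP difference of PHLDA3 differed between the 2 media. The interaction of TRF and DDP was 0.51 on the log2(TPM + 1) scale (adjusted p = 1.79e-04, limma), with DDP differences of 0.65 in normal medium and 1.15 in TRF medium, and it ranged from 0.46 to 0.55 over its alternatives. PHLDA3 was higher with DDP in all 3 libraries of each medium. The same test passed for 29.8% of all genes.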

How the results depend on the processing

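No result reversed under any alternative run. Of 339 alternative values for the members' differences and shares, 329 were counted as the same. For PHLDA1 and PHLDA3 this meant the same direction and the same call. PHLDA2 differences had to keep direction and stay within the replicate spread of the main value, and shares within their SD. Leaving out a single library cannot take a value past these last bounds. PHLDA3 in DDP against CON fell under the fold threshold with quantile normalization (0.58) and TMM scaling (0.57), and lost its call when tested against a fold of 1.5 (0.65, adjusted p = 1.00, limma), as did its interaction (0.51). Leaving out single libraries kept it between 0.61 and 0.67. PHLDA2 in TRF+DDP against DDP moved to 3.82 with TMM scaling. With no fold threshold, PHLDA1 passed in DDP against CON (0.46), TRF+DDP against DDP (-0.26), TRF+DDP against TRF (0.35) and TRF+DDP against CON (0.20), and PHLDA3 in TRF against CON (0.28). Over its alternatives, the adjusted p of PHLDA3 in TRF+DDP against DDP was between 7.61e-09 and 0.00443 (limma). By Spearman's rho, 2, 0 and 1 of the 5 genes most like PHLDA1, PHLDA2 and PHLDA3 were the same ones.

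The replicate numbers did not pair the libraries: deviations of same-numbered libraries correlated between -0.082 and 0.079, and 2 of 12 libraries correlated best with their own number. With the replicate block, PHLDA3 in TRF+DDP against DDP stayed at 0.79 (adjusted p = 1.11e-07, limma) and no member gained or lost a call.

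Of 480 alternative counts of called list genes, 46 moved by over 1.5 times. Main counts, in the order DDP against CON, TRF against CON, TRF+DDP against DDP, TRF and CON, were 0, 5, 3, 4 and 3 for the imprinted 11p15.5 list, 0, 3, 5, 5 and 5 for other imprinted genes, 0, 4, 6, 4 and 5 for PI3K and AKT, 0, 4, 4, 3 and 5 for ERK, 19, 13, 19, 27 and 23 for p53, and 0, 13, 13, 2 and 13 for heat shock. With no fold threshold the moved counts were 2, 8, 5 and 8 for the 11p15.5 list (all but TRF+DDP against TRF), 2, 8, 9, 8 and 10 for other imprinted genes, 15, 22, 18 and 21 for PI3K and AKT (all but DDP against CON), 3 (DDP against CON) and 8 (TRF+DDP against TRF) for ERK, 29 (DDP against CON) and 25 (TRF against CON) for p53, and 4 and 8 for heat shock in the same comparisons as ERK. Tested against a fold of 1.5, p53 targets in DDP against CON came to 3. TRF against CON then had 2 for the 11p15.5 list, 1 for other imprinted genes, 0 for PI3K and AKT and 2 for ERK. TRF+DDP against TRF had 0 for PI3K and AKT, 1 for ERK and 0 for heat shock, and PI3K and AKT had 3 in TRF+DDP against DDP and 3 against CON. Quantile normalization and TMM scaling gave 3 for the 11p15.5 list in TRF against CON, quantile normalization 1 for PI3K and AKT there, and TMM 1 for heat shock in TRF+DDP against TRF. Requiring 1 TPM in every library gave 3 and 2 for the 11p15.5 list in TRF against CON and TRF+DDP against TRF, and 2 and 3 for PI3K and AKT in TRF+DDP against TRF and CON. A pseudocount of 0.1 gave 5 for other imprinted genes in TRF against CON, and 10 and 8 for PI3K and AKT in TRF+DDP against DDP and CON. Without DDP replicate 1, other imprinted genes had 1 in DDP against CON. Without TRF replicate 2, PI3K and AKT had 7 in TRF against CON, and without TRF+DDP replicate 3 it had 10 in TRF+DDP against DDP. Heat shock in TRF+DDP against TRF had 1 without TRF replicate 1, TRF replicate 3 or TRF+DDP replicate 2. The causes of these moves were not tested.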
